A study of Mus musculus with 104 samples.

Results

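The CpGs described here are those autosomal positions whose methylation in mouse liver fell in the weeks after birth. They were chosen by the liver values themselves: the mean level in the libraries from E18 and P1 had to exceed the mean level in the libraries from P15 and P20 by at least 25 percentage points, with at least 5 values on each side. Of 70259 CpGs in the liver table, 69756 lie on autosomes and 68076 had enough values to be tested, and 1363 of these (2.00%) met the rule and are called losing CpGs. The mirrored rule, a rise of at least 25 points, found 4023 CpGs (5.91%), called gaining CpGs and used for comparison. Because E18, P1, P15 and P20 chose the losing CpGs, their levels at these ages are given as a description with no test. P5 and P10 in liver and all ages in muscle and heart took no part in the choice.

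The study followed mice labelled C57BL/6, named C57BL/6J in its methods, around birth, with age and tissue as the variables and no treatment. DNA methylation was read by reduced representation bisulfite sequencing (RRBS), in which DNA is cut at CCGG by MspI, treated with bisulfite and sequenced, so that the share of reads with an unconverted cytosine gives the methylation level of a CpG. For liver there were 4 libraries from each of E18, P1 and P5, 3 from each of P10 and P15, and 5 from P20, where E stands for embryonic and P for postnatal day. Muscle gave 4, 5, 3, 4, 4 and 4 libraries at the same ages, and heart gave 4 from each of P1 and P5 and 5 from each of P15 and P20. Heart at E18 and P10, which the study also profiled, was not analysed here.

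Each of the 65 libraries correlated best with the other libraries of its own labelled tissue, over 27613 CpGs in all 3 tables. The highest correlation between any 2 libraries was 0.926, so none was a copy of another. Each library comes from whole tissue, so a change of level within a cell type and a change in the share of that cell type cannot be told apart. The tables give no number of reads for a single level, which the authors kept at 10 or more.

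DNA methylation is copied onto the new strand when a cell divides, and it is lost either by failure of that copying or by active removal through oxidation. In the fetus the liver is a site of blood formation as well as an organ of immature hepatocytes. After birth blood formation moves to the bone marrow, and hepatocytes take up the work of the adult liver, among it the secretion of clotting factors and lipoproteins, the making of glucose and the response to growth hormone. Low methylation within and near genes that a tissue uses is a known feature of many of its active promoters and enhancers.

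The following windows show the DNA around losing CpGs on which the results turn. Each was read from the mouse reference NCBIM37 (mm9, the build of the tables), 5′ to 3′ on the plus strand, with the losing CpGs in capitals. Fgg and Scarb1 hold dense clusters in genes of liver secretion and lipid uptake, and Macrod1, Sik3 and Stat5b hold losing CpGs measured in all liver libraries. Nfia shows a large fall between P5 and P10, Pik3ap1 a fall in muscle, and Cmtm8 a high level in muscle.
Fgg (chr3:82816720-82816924): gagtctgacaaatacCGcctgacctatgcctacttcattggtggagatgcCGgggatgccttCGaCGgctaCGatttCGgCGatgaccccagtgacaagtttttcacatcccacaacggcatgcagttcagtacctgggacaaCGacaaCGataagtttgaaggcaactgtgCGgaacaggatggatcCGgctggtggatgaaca
Scarb1 (chr5:125766429-125766585): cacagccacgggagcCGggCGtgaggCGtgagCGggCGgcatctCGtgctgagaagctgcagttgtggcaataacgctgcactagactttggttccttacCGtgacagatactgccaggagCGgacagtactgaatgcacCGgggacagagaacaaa
Macrod1 (chr19:7196016-7196217): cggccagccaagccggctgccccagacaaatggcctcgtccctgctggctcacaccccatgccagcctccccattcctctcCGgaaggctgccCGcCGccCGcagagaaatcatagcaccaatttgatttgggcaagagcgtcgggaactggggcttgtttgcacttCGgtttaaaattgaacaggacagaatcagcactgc
Sik3 (chr9:45831778-45831979): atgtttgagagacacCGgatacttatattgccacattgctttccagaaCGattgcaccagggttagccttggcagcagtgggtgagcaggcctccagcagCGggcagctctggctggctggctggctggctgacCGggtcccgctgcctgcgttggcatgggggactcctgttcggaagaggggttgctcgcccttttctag
Stat5b (chr11:100681318-100681519): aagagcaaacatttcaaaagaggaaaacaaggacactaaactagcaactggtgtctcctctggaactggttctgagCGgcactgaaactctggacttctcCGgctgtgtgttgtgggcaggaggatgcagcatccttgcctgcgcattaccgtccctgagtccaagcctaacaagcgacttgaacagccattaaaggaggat
Nfia (chr4:97535531-97535732): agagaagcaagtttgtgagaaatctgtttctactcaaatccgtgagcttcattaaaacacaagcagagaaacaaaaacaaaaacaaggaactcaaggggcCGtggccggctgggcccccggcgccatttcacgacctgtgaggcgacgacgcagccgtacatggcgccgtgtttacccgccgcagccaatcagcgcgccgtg
Pik3ap1 (chr19:41420716-41420917): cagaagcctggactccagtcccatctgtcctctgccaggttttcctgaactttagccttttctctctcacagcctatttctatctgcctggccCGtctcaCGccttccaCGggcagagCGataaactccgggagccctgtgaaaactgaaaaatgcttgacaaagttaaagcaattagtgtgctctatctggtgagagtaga
Cmtm8 (chr9:114718061-114718262): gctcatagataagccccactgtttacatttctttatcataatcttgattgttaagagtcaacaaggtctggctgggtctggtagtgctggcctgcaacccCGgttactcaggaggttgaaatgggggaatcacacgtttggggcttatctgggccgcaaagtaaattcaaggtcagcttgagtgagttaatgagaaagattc

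The Fgg window lies in an exon of the gene for the gamma chain of fibrinogen, and the Scarb1 window in an exon of at least 1 annotated transcript of the gene for the HDL receptor SR-BI. In the Fgg window the 11 capital CpGs spread over 175 bp, and 12 cytosines were measured at them because 1 dinucleotide was read on both strands. Macrod1, Sik3, Stat5b, Nfia, Pik3ap1 and Cmtm8 are intronic. The Nfia and Cmtm8 windows also hold the letters TGTTTAC, which match the core of the FOXA motif, the DNA signature of the forkhead factors that act in liver development.

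In the 8 liver libraries before and just after birth the losing CpGs were methylated at middle levels. Their median level was 64.6%, 60.8%, 60% and 51.8% in the 4 libraries of E18, and 53.5%, 59.4%, 58.4% and 60% in the 4 of P1. At P20 the 5 libraries gave 15.6%, 18.2%, 20.4%, 16% and 24.0%. These ends are what the rule asked for, and across CpGs the loss ran from 25 to 69.5 points with a median of 31.9.

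The ages in between took no part in the choice. At P5 the median level of the losing CpGs was 44.4%, 42.9%, 46.0% and 42.9% in the 4 libraries, and at P10 it was 38.9%, 45.2% and 36.2% in the 3. The mean over libraries was 44.0% ± 1.52 (SD, n = 4) at P5 and 40.1% ± 4.61 (SD, n = 3) at P10. Choosing CpGs by the 2 ends moves the end levels apart by noise as well, so that levels between the ends, and the shares of the loss given next, follow in part from the choice. Over all tested CpGs the same medians went the other way, from 63.5% ± 2.82 (SD, n = 4) at P5 to 69.8% ± 3.04 (SD, n = 3) at P10.

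**Figure D1:**
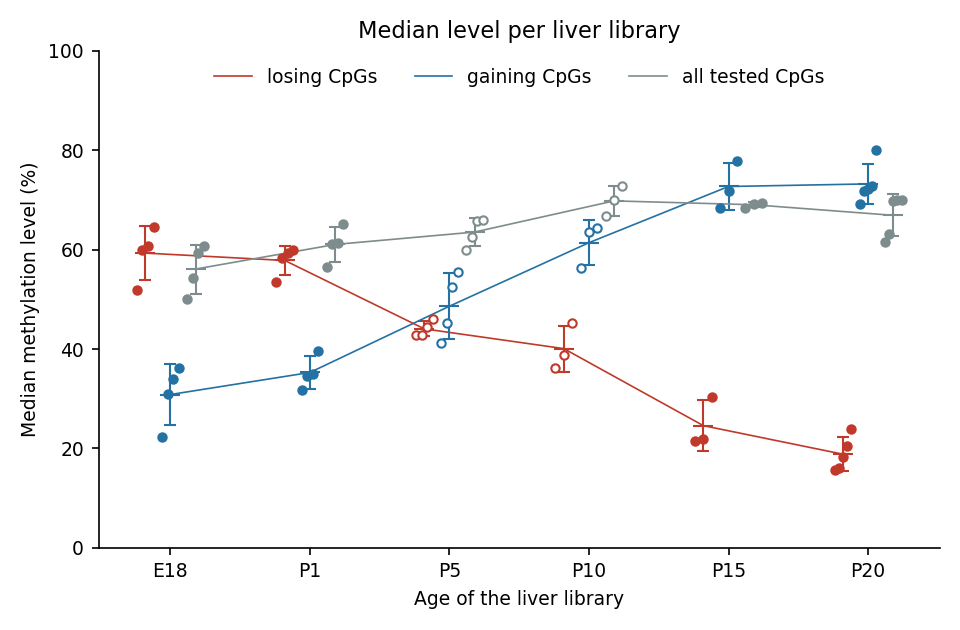
Median methylation level (%) over the losing, the gaining and all tested CpGs in each liver library, by age. Each point is 1 library, bars are the mean and SD over libraries, filled points are ages used by the rule and open points are P5 and P10, where the losing CpGs sit at 42.9% to 46.0% and 36.2% to 45.2%.

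Expressed as a share of each CpG's own loss, the median losing CpG had gone 39.4% of the way at P5 and 51.8% at P10. The median gaining CpG had gone 40% of its way at P5, about as far, but 72.7% at P10. Summed over CpGs within a library, the losing CpGs had reached 39.7%, 40.7%, 32.0% and 41.0% of the loss in the 4 libraries of P5 and 48.9%, 37.9% and 60.9% in the 3 of P10, so 1 of the P10 libraries lay within the range of P5 and 2 lay above it. The gaining CpGs had reached 23.2% to 54.4% at P5 and 58.5% to 76.8% at P10, with no overlap between the ages.

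Single CpGs took different times over the loss. Of the 1363 losing CpGs, 323 (23.7%) had passed the midpoint of their loss at both P5 and P10, 383 (28.1%) at P10 only, and 467 (34.3%) at neither age. The remaining 190 (13.9%) were past it at P5 and short of it at P10. Of the gaining CpGs 19.5% had passed the midpoint at neither age, 30.2% at both, 43.8% at P10 only and 6.49% at P5 only.

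**Figure D2:**
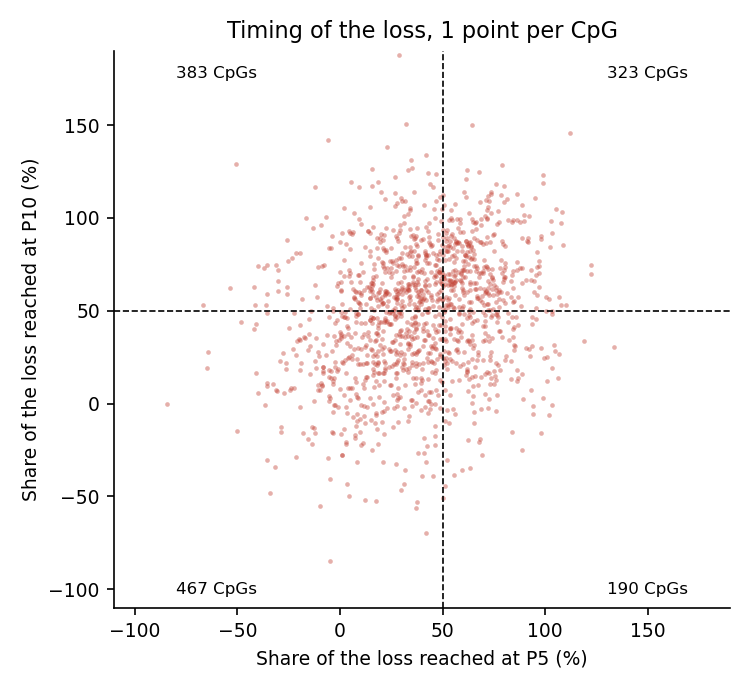
Share of the loss reached at P10 (%) against the share reached at P5 (%), 1 point per losing CpG, with dashed lines at the midpoint of the loss. The 4 corners hold 323, 383, 467 and 190 CpGs, and the largest of these, with 467, is the corner that had not reached the midpoint by P10.

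The 323 CpGs that were past the midpoint at both ages started lower than the 467 that were late, with median levels of 52.3% and 62.2% at E18 and P1, and ended lower, with 18.7% and 27.3% at P15 and P20. The early group also had lower levels in muscle, with a median of 19% over 202 CpGs against 32.9% over 209, and in heart, with 23.6% over 192 against 44.0% over 258. Promoter positions made up 12.4% of the early group and 7.07% of the late group. These are descriptions over CpGs that share libraries, and no test was made of them.

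The fall from P5 to P10 was tested CpG by CpG with limma on the fractions. Calls needed a difference over 5 percentage points together with an adjusted p (Benjamini-Hochberg) no higher than 0.1. Of 1356 losing CpGs tested, 0 were called lower and 0 higher, where the background over all 69961 CpGs was 0% in both directions. At an unadjusted p under 0.05, 96 losing CpGs (7.08%) were lower, against 1.34% of all CpGs, and 34 (2.51%) were higher, against 6.53%. The median difference, P10 minus P5, was -4.14 points over the losing CpGs and 3.5 points over all CpGs of the fit.

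The largest falls between these ages were in BC017647, Gm13847, Nfia and Mtss1 and at a position 68087 bases before the Apc start site. At the BC017647 CpG (chr11:77965872, intron) the levels were 82.1%, 70.3%, 85.1% and 78.1% at P5 and 30%, 33.3% and 26.7% at P10, a change of -48.9 points. The 2 ages did not overlap, yet limma gave an unadjusted p of 2.06e-05 and an adjusted p of 0.437. Mtss1, an actin-binding protein gene, held a CpG (chr15:58830789, intron) at 82.1%, 88.2%, 100% and 91.2% at P5 and 62.5%, 70.4% and 34.2% at P10.

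At the Nfia CpG shown above (chr4:97535632), in the gene of a nuclear factor I transcription factor, the levels were 48.0%, 100%, 48.5% and 34.8% at P5 and 14.3%, 12.5% and 30.8% at P10. All 3 values of P10 were below the lowest of P5, with an adjusted p of 0.623. The CpG in Gm13847 (chr6:31588650) read 85.0%, 100%, 100% and 64.3% at P5 and 56.2%, 23.5% and 17.6% at P10. None of the 5 largest falls passed the test.

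Some losing CpGs were higher at P10 than at P5. A CpG in an exon of Midn (chr10:79616420) read 12%, 0%, 24.3% and 3.45% at P5 and 47.1%, 73.7% and 46.7% at P10, then 13.9% and 23.5% in the 2 libraries of P15 that had a value. In Chrnd, the delta subunit of the muscle acetylcholine receptor, a CpG (chr1:89094030, exon) read 18.2%, 16.7%, 33.3% and 43.8% at P5 and 38.9%, 71.4% and 71.4% at P10. The adjusted p was 0.498 for Midn and 0.556 for Chrnd, and the other 3 of the 5 largest rises were in Trim2, Macf1 and Rbm47 at 30.9 to 34.5 points.

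The 10 largest losses among the 93 CpGs with a value in all 23 liver libraries were found in Macrod1, Tmem57, Sik3, Rbm47, Sft2d1, Tom1l2, Eif4ebp3 and Stat5b, and near Matn1 and the pseudogene Ap3s1-ps2. Of these 10, 7 are intronic, 1 exonic and 2 intergenic. Stat5b encodes the transcription factor that carries the growth hormone signal in hepatocytes, and Sik3 a salt-inducible kinase of metabolic control.

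At the Macrod1 CpG (chr19:7196116), in a gene for an ADP-ribose hydrolase, the level was 44.0%, 81.8%, 73.4% and 57.1% at P5 and 65.2%, 51.2% and 44.8% at P10. At E18 it was 85.9%, 83.0%, 88.9% and 49.4%, and at P20 it was 30.4%, 33.3%, 9.80%, 33.3% and 21.2%. P5 and P10 overlapped, while E18 and P20 did not.

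The Stat5b CpG (chr11:100681419) ran from 41.7% to 87.5% over the libraries of P5, P10 and P15. It read 72.7%, 55.6%, 48.8% and 87.5% at P5, 41.7%, 84.0% and 42.1% at P10 and 60.6%, 43.5% and 54.2% at P15, and only the 5 libraries of P20, at 7.14%, 21.1%, 25%, 16% and 7.41%, lay below all the others. The Sik3 CpG (chr9:45831879) was high at both middle ages, with 68.8%, 58.1%, 100% and 92.3% at P5 and 66.7%, 100% and 78.9% at P10. Its P20 libraries ran from 10.0% to 56.2% and overlapped with P15.

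The Tmem57 CpG (chr4:134369898) moved earlier, to 65.5%, 25%, 24.7% and 58.1% at P5 from 70.6% to 91.9% at E18, and read 41.7%, 40.7% and 72.1% at P10. At the limit of the rule stood CpGs in H2afy2, Lrpprc and near Tcf20, with losses of 25.001, 25.002 and 25.015 points. The nearest CpGs outside it were near Id2 and Arhgap32 and in Grk1, with losses of 24.997, 24.996 and 24.99 points.

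Losing CpGs lay close to each other. Among tested CpGs 1 to 50 bp from a losing CpG, 64.0% (1570 of 2452 ordered pairs of CpGs) were losing too, against 2.00% of all tested CpGs. The share was 51.4% at 51 to 100 bp, 38.9% at 101 to 500 bp, 10.2% at 501 to 1000 bp and 2.96% at 10001 to 100000 bp. Gaining CpGs also lay near each other, with shares of 53.5%, 47.9%, 46.6%, 49.3% and 7.79% over the same distances from a gaining CpG. Both strands of a CpG were counted as 1 here. CpGs on the same fragment can share reads, so their levels are not independent.

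Gaining CpGs were almost missing from this neighbourhood. Of the 1306 pairs at 101 to 500 bp 2 were with a gaining CpG, none was at the other distances up to 1000 bp, and the share returned to 7.14% at 1001 to 5000 bp and 8.16% at 10001 to 100000 bp, where gaining CpGs are 5.91% of all tested. In the clusters of 3 or more losing CpGs, 73 further tested CpGs lay between the losing ones. All 73 were lower at P15 and P20 than at E18 and P1, by a median of 19.6 points, short of the limit.

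**Figure D3:**
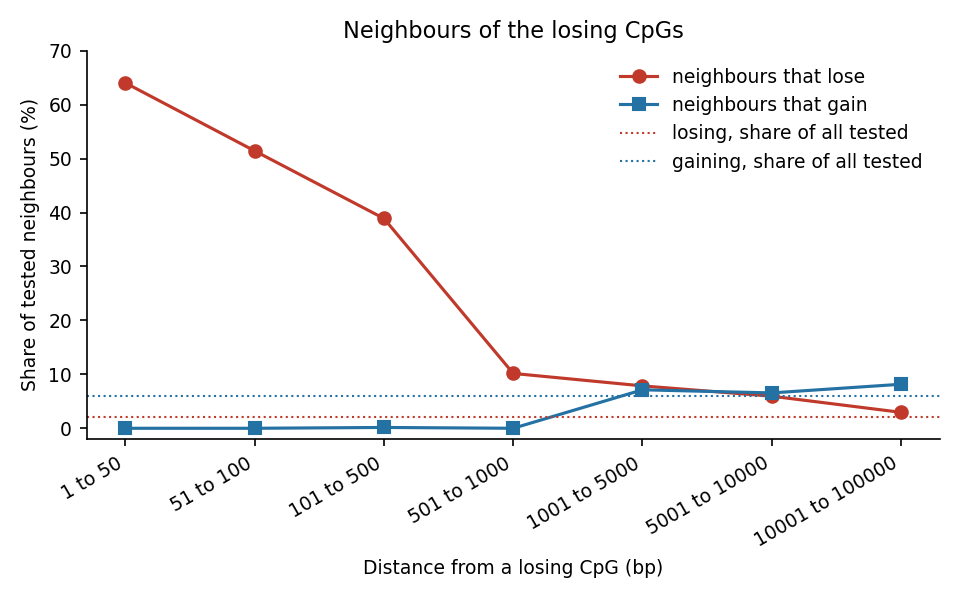
Share (%) of the tested CpGs at a given distance (bp) from a losing CpG that are losing (circles) or gaining (squares), with dotted lines at their shares of all tested CpGs, 2.00% and 5.91%. The losing share falls from 64.0% to 2.96% with distance, and the gaining share is near 0% up to 1 kb.

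Joined where no more than 500 bp apart, the losing CpGs formed 787 clusters, of which 501 held a single CpG, 149 a pair and 137 at least 3. Of the 1363 CpGs, 861 (63.2%) were in clusters of 2 or more, with a median span of 39.5 bp. CpGs of a cluster were alike at the ages the rule did not use. In clusters of 3 or more the median SD within a cluster was 7.75 points at P5 and 7.30 at P10, and the SD between cluster means was 16 and 15.4.

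The 7 largest clusters lay in C530008M17Rik (15 CpGs), Fgg (11), 2700081O15Rik (10), Scarb1 (9), Sipa1 (9), Rasal3 (8) and Dst (7), and among 8 clusters of 6 CpGs the one in Vps37b had the largest mean loss. Sipa1 and Rasal3 encode GTPase-activating proteins, the latter of blood cells, Dst a cytoskeletal linker and Vps37b a part of the endosomal sorting machinery. In Fgg all 12 tested positions in the gene and 10 kb around it were losing, and in Scarb1 all 9 tested positions within the cluster were. The C530008M17Rik cluster was mixed, with 15 losing of 26 tested.

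The Fgg cluster (chr3:82816735-82816909) had mean levels of 62.8%, 58.5%, 81.3% and 65.6% at P5 and 55.8%, 52.3% and 42.7% at P10. Every library of P10 was below every library of P5. It had stood at 73.7% to 75.6% in the 3 libraries of E18 with a value and at 65.3% to 79.5% at P1, and ended at 15.9% to 47.5% at P20.

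In Scarb1 (chr5:125766444-125766570) the order was different. The cluster was at 80.5% to 83.2% at E18 and 75% to 83.1% at P1, and already at 54.6%, 62.4%, 42.4% and 37.6% at P5. The 3 libraries of P10, at 64.0%, 64.4% and 42.3%, overlapped with P5, and P20 gave 22.5% to 36.7%.

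**Figure D4:**
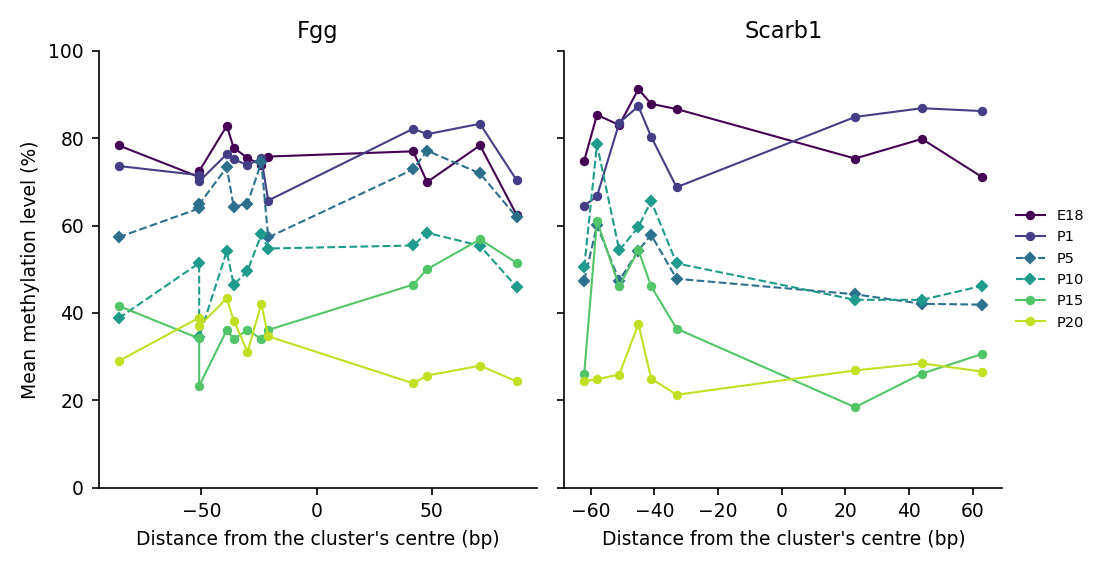
Mean methylation level (%) of each losing CpG of the Fgg and Scarb1 clusters by distance from the cluster's centre (bp), 1 line per age, with dashed lines and diamonds for P5 and P10. In Fgg the P5 line lies above P10 at every CpG, and in Scarb1 the P10 line lies above P5 at all but 1 CpG.

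The Rasal3 cluster (chr17:32533368-32533474) fell to low levels, with 2.78%, 2.89%, 3.32%, 5.26% and 13.5% at P20. At P5 it read 18.4%, 30.9%, 43.1% and 13.4%, and at P10 16.7%, 11.5% and 5.54%. The Dst cluster (chr1:34178389-34178467), in the promoter, was at 45.9%, 39.9%, 31.8% and 34.7% at P5 and at 31.4%, 44.7% and 60.2% at P10, with the ages overlapping. In Vps37b (chr5:124454755-124455232) 65.0%, 60%, 61.9% and 53.4% at P5 became 31.5%, 61.4% and 26.2% at P10.

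Lists of genes with known roles were set beside the losing CpGs, counting each gene with 10 kb on both sides. Over all 12029 protein-coding genes with a tested CpG, 803 (6.68%) had a losing CpG, and 2.33% of their tested CpGs were losing. For 31 secreted liver proteins, 17 had a tested CpG, 9 of these 17 had a losing CpG, and 21 of 52 tested CpGs (40.4%) were losing against 3 (5.77%) gaining. Of these 21 CpGs 12 are the Fgg cytosines. The genes were the clotting proteins Fgb, Fgg, F2, F7 and F10, the apolipoproteins Apoa1 and Apoc3, which share the same 2 CpGs, Ambp, and Alb, whose CpG lies 9397 bp from the gene. That CpG lies nearer to Afp, at 4714 bp, and is counted again for it among the fetal liver genes.

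The Apoa1 and Apoc3 CpGs (chr9:46040189-46040331), at the genes of the main protein of HDL and of an inhibitor of lipoprotein lipase, had a mean level of 50.9% ± 7.79 (SD, n = 4) at P5 and 33.6% ± 11.2 (SD, n = 3) at P10. The Fgb CpGs (chr3:82853611-82853624), in an exon of the fibrinogen beta chain, had 55.3% ± 12.2 (SD, n = 4) and 44.0% ± 19.6 (SD, n = 3). In both, the libraries of P5 and P10 overlapped.

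For growth hormone and insulin signalling 3 of 20 genes had a losing CpG and 10 of 115 tested CpGs (8.70%) were losing. They lie in Stat5b (6 CpGs of 8 tested), in Irs2, an adaptor of the insulin receptor, and near Cish, a STAT5 target that dampens cytokine signals. The 6 Stat5b CpGs averaged 79.7% ± 6.45 (SD, n = 4) at P5, 59.4% ± 12.9 (SD, n = 3) at P10 and 24.7% ± 7.38 (SD, n = 5) at P20, from 72.0% ± 6.37 (SD, n = 4) at E18. The 2 Cish CpGs were lower by P5, at 45.4% ± 12 (SD, n = 4), and read 38.1% ± 7.68 (SD, n = 3) at P10.

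Among 21 hepatocyte transcription factors 3 genes had a losing and 5 a gaining CpG. Of 206 tested CpGs 11 (5.34%) were losing, against 2.33% over all protein-coding genes, and 27 (13.1%) were gaining, against 5.97%. Foxa3, a forkhead factor of liver genes, had 8 losing of 20 tested, at 52.8% ± 3.47 (SD, n = 4) at P5 and 49.9% ± 7.18 (SD, n = 3) at P10. Hnf4a had 1 and Rxra 2. Among genes of sugar and amino acid metabolism 3 of 22 had one: Pck1, the gluconeogenic enzyme PEPCK, with 5 losing of 12 tested, and Fbp1 and Ppp1r3c with 1 each.

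In the remaining lists no more than 2 genes each had a losing CpG. Bile acid and lipid metabolism had 1 gene of 17 (Srebf2), drug metabolism 1 of 9 (Aldh1l1), fetal liver genes 2 of 16 (Afp and Hmga2) and blood cell genes 1 of 18 (Runx1). Muscle genes had 0 of 22 genes and 0 of 217 tested CpGs, and the DNA methylation enzymes 0 of 12 genes and 0 of 51. By CpGs the losing shares were 1.23% for bile acid and lipid metabolism, 5% (1 of 20) for drug metabolism, 2.60% for fetal liver genes and 4.46% for blood cell genes. Gaining CpGs lay at 3 of 17, 3 of 9, 4 of 16 and 6 of 18 genes of these lists, and at 17.0% of all protein-coding genes. The lone blood cell gene, Runx1, a regulator of blood stem cells, held 5 losing CpGs (chr16:92606181-92606222). They had dropped early, from 56.6% ± 3.41 (SD, n = 3) at E18 to 12.5% ± 6.10 (SD, n = 4) at P5, and read 13.6% ± 11.0 (SD, n = 3) at P10.

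By genic context 42.0% of the losing CpGs were intronic, 24.3% exonic, 24.2% intergenic and 9.54% within promoters, taken as 1 kb before a start site. Over all tested CpGs the shares were 33.8%, 20.4%, 37.5% and 8.23%. With 1 CpG kept per cluster the exonic share of the losing CpGs was 17.7% and the intronic share 45.7%, beside 15.2% and 36.4% when the tested CpGs were thinned alike. The losing CpGs were thus less often intergenic under both counts, with 28.6% against 39.7% after thinning. No test was made, since neighbouring CpGs are not independent.

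Short motifs of liver and blood factors were searched for within 100 bases of each CpG, on both strands. The FOXA core TGTTTAC stood near 78 losing CpGs (5.72%), against 1.67% of the gaining and 2.22% of all tested CpGs, and with 1 CpG per cluster the shares were 5.97%, 1.78% and 2.32%. The C/EBP letters TTGCNNAA stood near 11.3% of the losing, 6.66% of the gaining and 7.45% of all CpGs, and CAAAGT, part of the HNF4 motif, near 13.1%, 8.60% and 9.57%. For GTTAAT, part of the HNF1 motif, the shares were 5.94%, 4.05% and 4.51%.

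PU.1, a factor of blood cells, gave the opposite order. Its letters GAGGAAG stood near 5.94% of the losing, 12.6% of the gaining and 7.94% of all CpGs. For AGATAA, the GATA motif, the shares were 8.14%, 9.62% and 7.03%, and for the STAT letters TTCNNNGAA 4.33%, 5.39% and 5.10%. A match is a run of letters and not a bound site.

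The muscle table held 687 of the losing CpGs (50.4%, against 48.7% of all tested), and 744 were measured in heart (54.6%, against 59.1%). The authors removed from each table CpGs with too few values and CpGs under 10% in every sample, and these reasons for an absent CpG cannot be told apart. The Fgg, Scarb1 and Vps37b clusters are in neither table.

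In muscle the losing CpGs had low levels at all ages. Their median level was 28.6%, 32.4%, 23.9% and 30.8% at E18, 38.1%, 25.8% and 22.6% at P5, and 26.3%, 13.3%, 21.4% and 26.1% at P20. In heart it was 31.6%, 30%, 33.3% and 31.5% at P1, 32.5%, 29.4%, 26.0% and 30.2% at P5, and 38.1%, 28.9%, 31.2%, 33.3% and 31.2% at P20. The levels of E18 and P20 overlapped in muscle, as did those of P1 and P20 in heart.

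Averaged over libraries, the losing CpGs had a median of 26.4% in muscle and 32.0% in heart, against 49.9% and 62.6% over all tested CpGs in these tables. In liver at P15 and P20 the medians were 23.6% and 70.2%. The rule left out CpGs that stayed high in liver, so part of the gap in muscle and heart can follow from the choice. In muscle 38.4% were under 20% and 5.82% over 80%, against 26.0% and 25.2% of all. The gaining CpGs also held few high levels, with 8.88% over 80% in muscle and 11.7% in heart, and had medians of 40.5% and 45.7%. A smaller group was high in other tissues: of 543 CpGs in both tables, 295 were under 40% in both and 68 were over 60% in both.

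**Figure D5:**
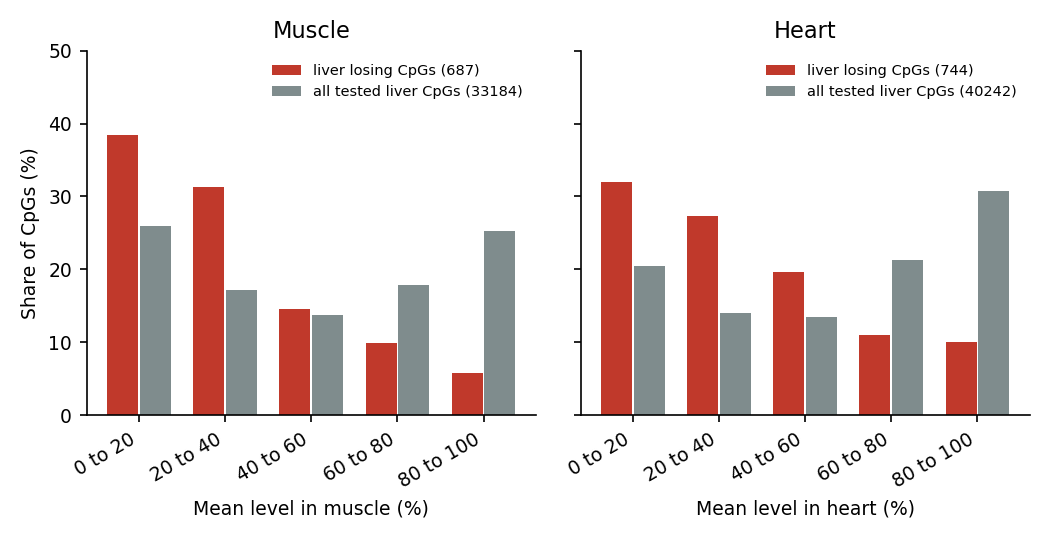
Share of CpGs (%) by mean methylation level in muscle (left) and heart (right), over all libraries of the tissue, for the liver losing CpGs and all tested liver CpGs. Of the losing CpGs 38.4% in muscle and 32.0% in heart are under 20%, and 5.82% and 10.1% are at 80% or more.

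Muscle was then compared between the same ages. From the libraries of E18 and P1 to those of P15 and P20, 19 of 686 losing CpGs tested (2.77%) were called lower in muscle by limma, against 0.573% of all 45935 CpGs, and 1 (0.146%) was called higher, against 0.453%. At an unadjusted p under 0.05, 93 losing CpGs (13.6%) were lower, against 5.52% of all CpGs, and 32 (4.66%) higher, against 5.15%. The median difference was -1.90 points over the losing CpGs and 0.203 over all CpGs of the fit. The count depended on the settings, with 1 call on the logit scale, 0 among the 120 losing CpGs measured in every library, 0 of 508 for E18 against P20 alone, and 2 with the replicate number as a block. At an unadjusted p under 0.05 the CpGs measured in every library gave 8 lower and 8 higher (6.67% each, against 5.34% and 6.42% of all), and E18 against P20 gave 59 lower and 29 higher (11.6% and 5.71%, against 4.86% and 3.49%). The lower ones numbered 87 (12.7%, against 5.28%) on the logit scale and 70 (10.2%, against 4.37%) with the block. Without P20 replicate 1 there were 11, and 12 without E18 replicate 9 or without P1 replicate 5. With the liver's rule of 25 points, 34 of 686 losing CpGs (4.96%) also lost methylation in muscle, as did 1.17% of all CpGs of the muscle table, and these 34 were 7.39% of the muscle losing CpGs that the liver rule could test.

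All 19 called CpGs lie in introns, as do 42.4% of the losing CpGs in the muscle table. They fall in 14 genes: Pik3ap1, with 3, Tom1l2, Sik3 and Egln1, with 2 each, and Cradd, Bmp2k, Rabgef1, Usp12, Sft2d1, Cerk, Arid5b, Asap2, Spred2 and Phldb1. The differences ran from -46.8 to -19.8 points. Egln1 encodes the oxygen sensor PHD2 and Pik3ap1 an adaptor of PI3 kinase.

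At the Pik3ap1 CpG (chr19:41420817) muscle read 63.5% and 93.8% at E18 and 65.0%, 76.9%, 48.9% and 80% at P1, then 25.9%, 15.7%, 7.14% and 0% at P15 and 34.1%, 35.3% and 53.3% at P20. The difference was -46.8 ± 8.87 points (SE) with an adjusted p of 0.0413 by limma. The late values overlapped with the early ones only in the highest library of P20.

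The Sik3 CpG shown above was among those called lower in muscle. In muscle it read 81.6% and 100% at E18, 61.9%, 68.0%, 40%, 81.0% and 61.5% at P1, 17.9%, 39.3%, 17.4% and 53.8% at P15 and 31.6%, 33.3% and 22.2% at P20. The highest P15 library lay above the lowest of P1. The difference was -39.8 ± 8.21 points (SE) and an adjusted p of 0.0539 by limma. The Tom1l2 CpG (chr11:60160380), in a gene of endosomal sorting, was called lower in muscle too, by -25.9 ± 4.67 points (SE, adjusted p of 0.0256 by limma). Muscle ran from 15% to 46.3% at E18 and P1 and from 0% to 23.1% at P15 and P20. At P5 muscle was at 6.25%, 11.4% and 7.55% while liver was at 33.3%, 65.0%, 61.8% and 43.2%. At P10 the tissues were closer, at 20.4%, 22.0%, 26.2% and 27.3% in muscle and 33.3%, 38.9% and 30.6% in liver. The single rise, in an intron of Mical3 that the annotation also gives to Gm4651 (chr6:121014904), was 23.3 ± 4.26 points (SE, adjusted p of 0.0256 by limma).

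In heart, P15 and P20 against P1 gave 0 losing CpGs called lower and 0 higher by limma out of 739, with backgrounds of 0.0338% and 0.0469% of 53286 CpGs. At an unadjusted p under 0.05, 51 (6.90%) were lower, against 2.96%, and 49 (6.63%) higher, against 4.82%. The smallest adjusted p among the losing CpGs was 0.103, for a rise of 43.8 points near Spsb1 (chr4:149351964), which read 18.8%, 26.3%, 43.2% and 35.7% at P1, 88.5%, 81.8%, 76.9% and 54.5% at P15 and 65.4% and 81.8% at P20. The 5 falls with the strongest moderated t were in Gm20388 (chr8:122756939), Cerk, Tnfsf15, Zmiz1 and Macrod1 (chr19:7196097), with differences of -14.6 to -30.4 points.

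Liver and muscle were compared at P5 and P10, ages outside the rule, with age as a covariate. Liver was called higher by limma at 193 of 687 losing CpGs (28.1%), against 17.7% of all 33997 CpGs, and lower at 71 (10.3%), against 2.76%. The median difference was 8.35 points over the losing, 5.18 over the gaining and 3.42 over all CpGs. In liver the losing CpGs had means of at least 27.6% at E18 and P1 and at most 64.5% at P15 and P20. The background also holds CpGs low or high throughout, so a larger share of calls both ways can follow in part from the choice. The 193 CpGs were at a median of 15.1% in muscle, and the 71 at 76.5%. With the replicate number as a block there were 92 higher (13.4%, against 10.8% of all) and 35 lower (5.09%, against 1.19%), and on the logit scale 146 (21.3%, against 14.7%) and 47 (6.84%, against 2.32%). At P5 alone there were 87 higher (12.7%, against 8.48%) and 37 lower (5.401%, against 1.45%). At P10 alone the 49 higher calls (7.15%) were below the share of all CpGs, 7.91%, and the 23 lower ones (3.36%) above it, 0.702%.

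The largest positive differences were 53.0 to 53.4 points, in Apaf1, Reep3, Emid2, Zc3h12d and Gm20388 (chr8:124592278, not the CpG named for heart). At the CpG in Apaf1 (chr10:90464331), the gene of the apoptosome scaffold, liver read 68.2%, 66.7%, 100% and 84.0% at P5 and muscle 47.6%, 16.2% and 27.3%. At P10 liver read 78.6%, 68.8% and 68.2% and muscle 10.0%, 30%, 1.85% and 16%, and the tissues did not overlap at either age. The difference was 53.4 ± 6.65 points (SE, adjusted p of 9.05e-05 by limma).

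The lowest were in Fam169b, Cmtm8, Psen2, Rapgef4 and Aim1l, at -48.2 to -42.6 points. The Cmtm8 CpG shown above (chr9:114718161) read 26.3%, 38.6%, 43.7% and 29.6% in liver at P5 and 88.9% and 97.4% in the 2 muscle libraries with a value, and 52.6%, 43.5% and 39.3% against 94.3%, 84.8%, 87.5% and 65.5% at P10. Fam169b (chr7:75451759) was at 42.9% to 56.8% in liver at P5 and 85.7% to 95.5% in muscle. Both lost methylation in liver while the muscle level was at least 65.5% in each library with a value.

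At P5 liver was called higher than heart by limma at 95 of 739 losing CpGs (12.9%), against 4.88% of 40983 CpGs, and lower at 39 (5.28%), against 0.871%. The median difference was 10.7 points over the losing, 1.67 over the gaining and 2.52 over all CpGs of the fit. As against muscle, the choice sets the liver levels of the losing CpGs apart from the background, and shares of calls can follow from it in part. At an unadjusted p under 0.05 liver was higher at 220 (29.8%, against 12.3% of all) and lower at 91 (12.3%, against 3.68%). Both counts of calls became 0 on the logit scale and 0 with the replicate number as a block. There the unadjusted test gave 189 higher (25.6%, against 10.402%) and 65 lower (8.80%, against 3.79%) on the logit scale, and 196 higher (26.5%, against 10.2%) and 83 lower (11.2%, against 3.25%) with the block. The lower calls numbered 25, 17 and 24 without liver P5 replicate 1, 4 or 5, and 24, 22 and 22 without heart P5 replicate 1, 3 or 5, which is 2.28% to 3.36% of the losing CpGs against 0.429% to 0.499% of all in these fits. The higher calls numbered 55 and 59 without liver P5 replicate 4 or 5, and 62, 49 and 49 without heart P5 replicate 1, 3 or 5, which is 6.59% to 8.39% against 2.47% to 3.95%. This comparison shares its liver libraries with the one against muscle. The Macrod1 CpG shown above was among the higher ones, with an adjusted p of 0.0535 by limma. At P5 it was at 44.0% to 81.8% in liver and 29.7%, 33.3%, 25% and 27.8% in heart. Heart was higher at the other ages, with 58.3%, 50%, 80% and 56% at P1, 26.1% to 55.2% at P15 and 44.4% and 50% at P20, so ranges overlapped in part.

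No losing CpG is among the CpGs read by locus-specific bisulfite sequencing in liver, and none lies within 1 kb of one, so that second assay gives no value for them.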

How the data were processed

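The authors aligned RRBS reads to mm9 with Bismark 0.7.6 and Bowtie2, and deposited for each tissue a table of methylation levels as a fraction per CpG and library. Values under 10 reads were left empty by them, and a CpG was dropped if over 20% of its values were empty or if all samples were under 10%. Fractions were multiplied by 100 and are given in percent, and the tables give no read counts, so the depth behind a single value is unknown and no counting interval is given. Groups follow the tissue and age in the labels. Of the per-sample columns, 13 matched no sample and were not used, among them those of heart at E18 and P10. The liver table on mm10 served only as an alternative.

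Differences were fitted with limma 3.58.1 in R 4.3.3 on the fractions over all CpGs of a table, and calls needed over 5 points together with an adjusted p (Benjamini-Hochberg) no higher than 0.1. P-values measure only the spread between these samples. Python 3.11.15, numpy 2.4.6, pandas 2.3.3, scipy 1.17.1, pysam 0.24.0 and matplotlib 3.10.9 were used for the rest, and the fits were tested on simulated data. CpGs were named by the 10 largest losses with a value in every liver library, the 8 largest clusters, and the 5 strongest changes each way from P5 to P10, in muscle, in heart and between liver and muscle, beside genes of the lists. The members and lists were chosen with earlier results of these data known, and the count with 1 CpG per cluster was added after seeing the data. In each comparison the deviations of same-numbered libraries were correlated, and no pair reached 0.1 (from -0.0590 to 0.0364). Deviations within so few libraries hold much noise, so this cannot decide whether same-numbered libraries of different tissues come from the same animal. The main fits left the libraries unpaired, and fits with the number as a block are given as alternatives.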

Additional observations from a re-analysis of the deposited data

Results flagged for a closer look

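Of 123 groups of at least 4 libraries examined, 5 held a library that stood apart from the others of its age, where chance gives about 1 in 20. At P5 the liver library of replicate 4 had gone 32.0% of the way of the loss, against 39.7% to 41.0% in the others. At P20 replicate 5 had 13.5% in the Rasal3 cluster, against 2.78% to 5.26%. At the Macrod1 CpG (chr19:7196116) the E18 library of replicate 15 read 49.4%, against 83.0% to 88.9%. At the Sft2d1 CpG (chr17:8505414) the P5 library of replicate 3 read 66.7%, against 28.2% to 33.9%. In muscle at P20, replicate 1 read 19.6% at the Cradd CpG (chr10:94780951), against 7.69% to 9.38%.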

How the results depend on the processing

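The number of losing CpGs was 2107 at a limit of 20 points, 846 at 30, 225 at 40 and 101 with a value in all 8 libraries on each side, and 1126 to 1464 with 1 library left out. Their median level at P5, 44.7%, was 46.6% at 30 points, 52.2% at 40 and 47.2% with all 8 values, and 44.2% to 45.9% with 1 library left out, and at P10 it was 46.0% at 40 points and 40.8% to 42.2% with 1 left out. The median change from P5 to P10 was -4.43 to -3.30 points with 1 library left out. At 40 points the median was 36.7% in muscle and 40.7% in heart, and 50.2% and 54.7% had another losing CpG within 100 bp and 1 kb, against 59.2% and 63.3% at 25 points. With 1 CpG per cluster, chosen after seeing the data, 45.7% were in introns and 17.7% in exons.

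The 19 CpGs called lower in muscle became 1 on the logit scale, 0 with a value in every library, 10 with the adjusted p limit at 0.05, 0 for E18 against P20 and 11 to 20 with 1 library left out. The 71 called lower in liver than in muscle became 47 on the logit scale, 43 with a value in every library, 109 and 36 at limits of 20 and 30 points, 37 at P5 and 23 at P10 alone, and 56 to 70 with 1 left out. The 39 called lower than in heart became 0 on the logit scale, 17 with the adjusted p limit at 0.05, 62 and 21 at limits of 20 and 30 points, and 17 to 29 with 1 left out. The CpGs called higher in liver moved too. The 193 against muscle became 146 on the logit scale, 123 with a value in every library, 87 at P5 and 49 at P10 alone, and 139 to 195 with 1 left out, and the 95 against heart became 0 on the logit scale, 49 with the adjusted p limit at 0.05, and 49 to 75 with 1 left out. In heart 1 CpG was called lower at a limit of 20 points, and the count from P5 to P10 in liver was 0 in all 15 alternatives. The causes were not tested.

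With the replicate number as a block, the counts of lower calls were 2 in muscle, 35 against muscle and 0 against heart, and those of higher calls 92 against muscle and 0 against heart. The labels give only a number, and whether same-numbered libraries of different tissues come from the same animal is not known. Depth behind single values is unknown, and 3 to 5 libraries per age limit the precision.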
